A study of Mus musculus with 5 samples.

Results

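The genes described here are 7 factors associated with definitive endoderm, the germ layer that forms the gut and its organs: Foxa1, Foxa2, Sox17, Sox7, Hhex, Trh and Cxcr4. They were chosen by name, as all probes of the array's value table whose gene symbol, ignoring case, was one of these symbols. The names, and the lists set beside them, were picked with earlier results of these data known. Each of the 7 genes was matched by 1 probe, of 20377 probes with a gene symbol that stood for 17742 genes. RNA was measured on single-colour microarrays in a mouse embryonic stem cell (ESC) line, 46C, and in cells differentiated from it towards heart muscle, and the title of the series concerns Linc1405, a long non-coding RNA, acting with the T-box factor Eomes. The 5 groups were Linc1405 knockdown cells at day 4 and control cells at day 4, which the labels call mesoderm, Linc1405 knockdown cells at day 10 and control cells at day 10, which the labels call cardiomyocytes, and undifferentiated control ESCs at day 0. Day 4 cells had received Bmp4, Activin A and VEGF without serum. Day 10 cells had received bFGF, VEGF and FGF10. ESCs were kept with serum and leukaemia inhibitory factor on feeders that were taken away before RNA was collected. The knockdown samples are named MES_1405KIpA and CM_1405KIpA, and the sources used here do not say how the line was made or how many clones it represents. No probe was identified as Linc1405, so the knockdown itself was not checked here.

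Each group held 1 array, so no spread between cultures could be measured, no p-value was computed, and each difference below sets 1 array against another. Values are probe intensities, quantile normalized over the 5 arrays on a linear scale, and their log2 with a floor of 100, below which intensities were not ordered. A difference with 1 array at the floor is a lower bound of its size. A gene was counted as higher or lower where its brighter array reached the 50th percentile of all gene values (a log2 level of 10.04) and the arrays were at least 2-fold apart. As a measure of disagreement between probes of a gene, the SD of a log2 difference was estimated from genes with more than 1 probe. It does not cover spread between cultures, and it was larger between stages than between the lines. Between the lines this SD was 0.194 at day 4 and 0.262 at day 10, over 810 genes each. For control cells it was 0.574 between day 4 and ESCs, over 867 genes, and 0.715 between days 10 and 4, over 907 genes. Marker genes were counted to check the labelled stages: of 8 measured pluripotency genes 7 were lower in control cells at day 4 than in ESCs, 10 of 12 primitive streak genes past the filter were higher there, and 7 of 7 measured heart muscle genes were higher at day 10 than at day 4 in both lines. Of all genes past the filter, 13.6% were lower and 12.7% higher in control cells at day 4 than in ESCs. Higher genes at day 10 than at day 4 made up 19.2% in control cells and 18.7% in knockdown cells. Fibroblast and feeder genes were also higher at day 10, 7 of 7 past the filter in both lines. Their medians were 5.69 in control and 6.71 in knockdown cells, against 5.84 and 4.49 for heart muscle genes. The heart muscle count thus does not show what share of the day 10 cultures was heart muscle. In these bulk cultures fewer cells of a type and less RNA per cell cannot be told apart.

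Definitive endoderm leaves the anterior primitive streak under Nodal signalling, for which Activin A is used as a substitute in culture, and Eomes acts in the streak upstream of both endoderm and cardiac mesoderm. Foxa1 and Foxa2 are forkhead transcription factors that open chromatin for gut and liver genes, and Foxa2 also acts in the node and notochord. Sox17 and Sox7 are SoxF factors with an HMG box: Sox17 is required for definitive endoderm, Sox7 is also active in extraembryonic endoderm, and both act in endothelium together with Sox18. Hhex is a homeobox repressor of anterior endoderm that blood and endothelial progenitors also use. Cxcr4 is the receptor of the chemokine Cxcl12 and is used to sort endoderm from cultures. Trh encodes the precursor of thyrotropin-releasing hormone, a peptide best known from the hypothalamus.

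The genes lie on different chromosomes of the mouse genome (GRCm38.p6), apart from Sox17 (chr1:4490928-4497426) and Cxcr4 (chr1:128588199-128592299), which share chromosome 1. Foxa2 is at chr2:148042877-148046969, Trh at chr6:92242061-92244650, Foxa1 at chr12:57540628-57548029, Sox7 at chr14:63943706-63950732 and Hhex at chr19:37434841-37440731. Promoter windows of 300 bases, from 250 before to 50 after an annotated start, were taken from RefSeq (GRCm38.p6), where 5 of the 7 genes matched, with 7 windows in all. Shown are windows of Foxa1 and Foxa2, whose levels moved most alike among the 7 genes, and of Trh, which of the 7 differed most between the lines at day 4. They are written 5′ to 3′ on the gene's strand, and capitals mark words from a fixed set described after them.
Foxa1, chr12:57546062-57546361, minus strand: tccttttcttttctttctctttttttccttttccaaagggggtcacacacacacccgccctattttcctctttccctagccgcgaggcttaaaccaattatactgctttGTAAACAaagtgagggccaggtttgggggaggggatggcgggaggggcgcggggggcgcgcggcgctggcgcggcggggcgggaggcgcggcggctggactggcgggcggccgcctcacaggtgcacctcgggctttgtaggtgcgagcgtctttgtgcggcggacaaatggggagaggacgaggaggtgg
Foxa2, chr2:148045415-148045714, minus strand: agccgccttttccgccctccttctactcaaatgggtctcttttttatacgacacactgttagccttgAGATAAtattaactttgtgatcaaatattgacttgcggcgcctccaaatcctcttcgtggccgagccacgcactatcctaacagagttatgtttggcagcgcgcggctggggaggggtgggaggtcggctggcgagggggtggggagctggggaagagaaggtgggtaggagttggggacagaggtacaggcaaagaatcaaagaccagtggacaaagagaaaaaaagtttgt
Trh, chr6:92244601-92244900, minus strand: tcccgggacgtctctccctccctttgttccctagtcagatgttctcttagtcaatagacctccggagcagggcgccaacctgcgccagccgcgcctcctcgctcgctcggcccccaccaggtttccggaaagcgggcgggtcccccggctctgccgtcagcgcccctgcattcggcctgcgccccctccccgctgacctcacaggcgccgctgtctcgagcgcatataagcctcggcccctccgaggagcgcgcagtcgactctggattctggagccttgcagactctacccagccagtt

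The words searched on both strands were GGTGTGA for T-box factors, TGTGGATT for Foxh1, TGTTTAC and TATTTAC for forkhead factors, CATTGT for Sox factors and AGATAA for Gata factors, and the forkhead words share their last 5 letters. The Foxa1 window held the forkhead word as GTAAACA, its reverse complement, starting 141 bases before the annotated start, and 3.65% of 32851 RefSeq windows of this length hold TGTTTAC. Of the 3 Foxa2 windows, the one shown held AGATAA starting 183 bases before its start, a word found in 11.2% of all windows. No searched word was found in the windows of Trh, Hhex and Cxcr4 or in the other Foxa2 windows. The remaining words stood in 3.98% (GGTGTGA), 0.855% (TGTGGATT), 3.04% (TATTTAC) and 12.6% (CATTGT) of all windows. These matches describe letters only, and no binding was measured.

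In control cells 6 of the 7 factors were brighter at day 4 than in ESCs, and Trh was the exception. Among the 5 genes past the brightness filter, Sox17, Sox7, Hhex and Cxcr4 were at least 2-fold higher and Trh at least 2-fold lower at day 4. Over all genes past the filter in this comparison 12.7% were higher and 13.6% lower. The median log2 difference of the 7 genes was 2.91, against 0 for all 17742 genes. Foxa1 and Foxa2 stayed dimmer than the filter on all 5 arrays. They are therefore described by their values. Fibroblast and feeder genes also differed in this comparison: of 5 past the filter 4 were lower at day 4 than in ESCs, among them Dcn (-4.86), with a list median of -2.50 and a summed normalized intensity of 4355 in control cells at day 4, against 67510 in ESCs. Their part in the ESC values was not tested.

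Sox17 had normalized intensities of 268 in ESCs, 4903 in control cells at day 4 and 4043 in control cells at day 10. It was 18.3-fold higher at day 4 than in ESCs, while its log2 difference of -0.28 between day 10 and day 4 was within the between-probe SD. Sox7 lay below the floor in ESCs and had intensities of 2153 at day 4 and 1906 at day 10, at least 21.5-fold higher at day 4 than in ESCs. Their levels at days 10 and 4 were thus not separated after scaling, whereas as deposited the differences were -0.97 for Sox17 and -0.87 for Sox7, beyond the SD of 0.715, with the median of all genes at -0.72. Sox18, the third SoxF gene and one used mainly by endothelium, had 747, 1743 and 5246 in the same 3 groups and was higher by 1.59 on the log2 scale at day 10 than at day 4.

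Hhex and Cxcr4 stood highest at day 4. Hhex had 606 in ESCs, 2673 in control cells at day 4 and 1319 in control cells at day 10. It was 4.41-fold higher at day 4 than in ESCs and 2.03-fold lower at day 10 than at day 4. With loess centring of the pair of arrays Hhex was no longer 2-fold lower at day 10. Cxcr4 had 121, 2050 and 574 in the same groups, 17.0-fold higher at day 4 than in ESCs and 3.57-fold lower at day 10 than at day 4. Its ligand gene Cxcl12 followed another course, with 473 in ESCs, 5011 in control cells at day 4 and 208069 in control cells at day 10.

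The Foxa genes were dim at every stage. Foxa1 was below the floor in ESCs and had 754 in control cells at day 4 and 409 in control cells at day 10, a difference of at least 2.91 on the log2 scale between day 4 and ESCs. Foxa2 had 153 in ESCs, 731 in control cells at day 4 and 476 in control cells at day 10, higher by 2.25 at day 4 than in ESCs. Both were highest in control day 4 cells. Foxa3, the remaining family member and a gut and liver factor, had 884, 1020 and 867 in the same groups and differed by 0.21 between day 4 and ESCs.

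Trh went against its place among endoderm genes, since it was brightest in ESCs. Its intensities were 163975 in ESCs, 13170 in control cells at day 4 and 499 in control cells at day 10. Trh was 12.5-fold lower at day 4 than in ESCs and 26.4-fold lower again at day 10 than at day 4. Its level was thus highest before differentiation, and it is called Trh below and not an endoderm marker.

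**Figure D1:**
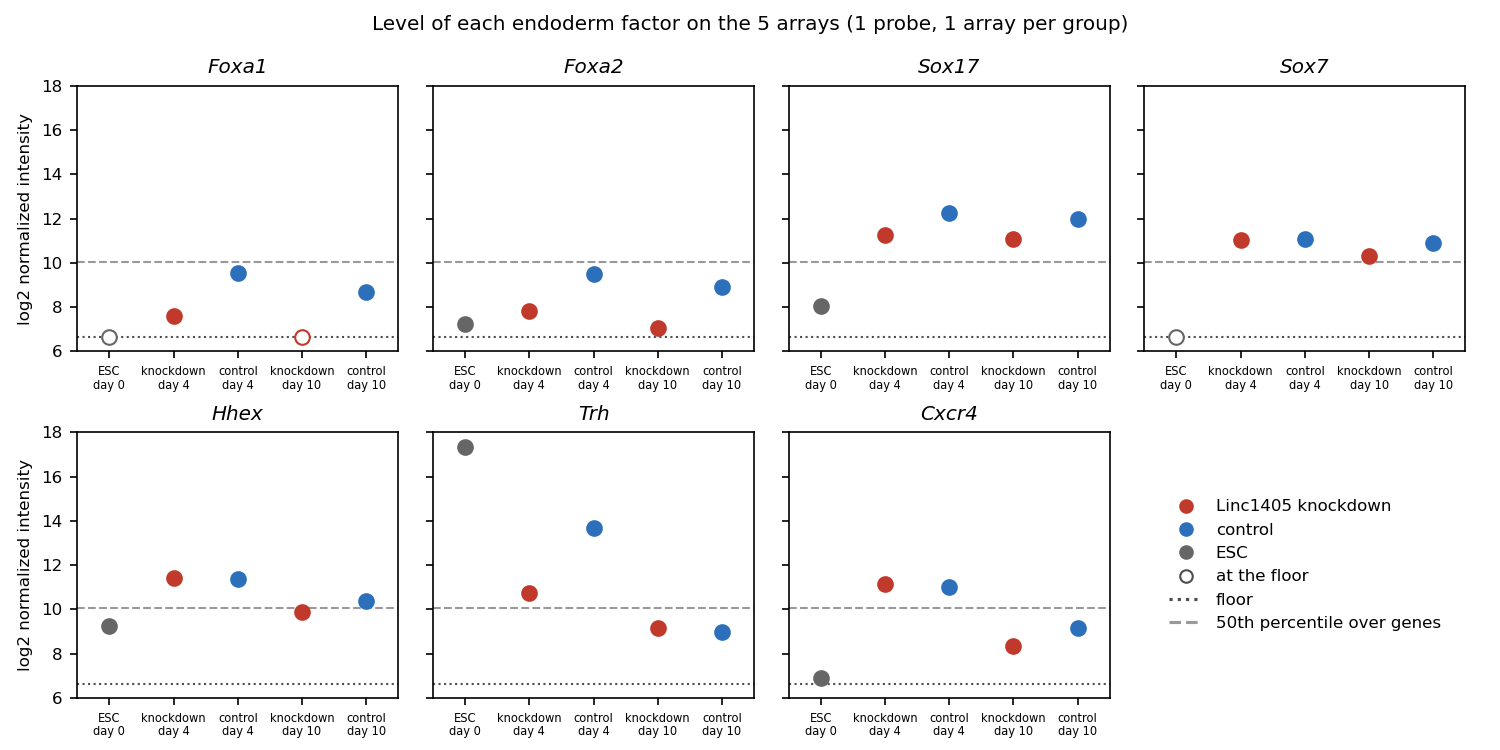
Log2 normalized intensity (y axis) of each of the 7 factors on the 5 arrays (x axis), 1 point per array; open circles are arrays at the floor (dotted line), and the dashed line is the 50th percentile over genes, 10.04. Trh is highest in ESCs, the other 6 are low there, and the knockdown points of Foxa1, Foxa2 and Sox17 lie below the control points on both days.

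The order of levels was read within each gene, calling neighbours separate only where they lay further apart than the between-probe SD of their pair of arrays. For Foxa2 and Sox17 the 2 control arrays of days 4 and 10 were not separated from each other and lay above both knockdown arrays, for Sox17 by a gap (0.71) barely over the SD (0.70). For Foxa1 the order was control day 4, control day 10, knockdown day 4, then ESCs and knockdown day 10 together at the floor. The step between knockdown day 4 and control day 10 turned without scaling between arrays. As deposited, knockdown day 4 stood at 271 and control day 10 at 240 for Foxa1, at 316 and 282 for Foxa2, and at 3141 and 2822 for Sox17. For Sox7, Hhex and Cxcr4 the knockdown and control arrays of day 4 were not separated, and on day 10 the knockdown array lay below the control array. Trh was highest in ESCs, then in control cells at day 4, then in knockdown cells at day 4, with both day 10 arrays lowest and not separated.

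At day 4, 3 of the 7 genes lay more than 2-fold apart in knockdown cells, Trh, Foxa1 and Foxa2, all lower, with Sox17 at the edge of 2-fold and Sox7, Hhex and Cxcr4 nearly level. With the brightness filter, 1 of 5 genes that passed it was counted as lower, Trh, where 1.09% of all genes past the filter were lower and 0.652% higher. Trh is the gene that was brightest in ESCs. The others past this filter, Sox17, Sox7, Hhex and Cxcr4, were not counted in either direction. With a filter at the 50th percentile over all probes in place of genes (a log2 level of 9.16), a setting added after the values were seen, all 7 genes passed and the 3 were lower, where 1.47% of all genes past that filter were. Without any filter the same 3 were lower, where 1.35% of all genes were. The median of the 7 genes was -0.99, against 0 for all genes, and 5 of the 7 lay below 0. That median is the value of Sox17, and without Trh it would fall midway between Sox17 and Sox7 (-0.04).

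Trh had a normalized intensity of 1711 in knockdown cells, against 13170 in control cells at day 4, and was 7.70-fold lower (log2 difference -2.94). Foxa1 had 196 in knockdown cells, against 754 in control cells, a log2 difference of -1.95. Foxa2 had 229 in knockdown cells, against 731 in control cells, a log2 difference of -1.68. Among pairs of probes as dim as those of the Foxa genes (brighter log2 level from 8 to 10.04) the between-probe SD at day 4 was 0.330 over 180 genes. Both Foxa differences were larger than this SD. Only 0.310% of all genes had a difference as low as that of Foxa2.

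Sox17 had 2464 in knockdown cells, against 4903 in control cells at day 4, a log2 difference of -0.99 that fell just short of 2-fold. With scaling to a common 75th percentile or loess centring it passed 2-fold. Sox7 had 2098 in knockdown cells, against 2153 in control cells, and Hhex had 2736 in knockdown cells, against 2673 in control cells. Cxcr4 had 2241 in knockdown cells, against 2050 in control cells. The log2 differences of Sox7 (-0.04), Hhex (0.03) and Cxcr4 (0.13) were within the between-probe SD of 0.194. For these 3 genes the arrays of the 2 lines could not be told apart at day 4, which does not show that the cultures were alike.

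At day 10, 6 of the 7 genes were dimmer in knockdown than in control cells, and none of the 3 genes past the brightness filter (Sox17, Sox7 and Hhex) reached 2-fold. The background of this comparison was 3.51% of genes lower and 2.41% higher. The median of the 7 genes was -0.79, against 0 for all genes. Without a brightness filter Foxa1 and Foxa2 were counted as lower, where 2.7% of all genes were. Of 7 heart muscle genes 5 were lower in knockdown cells at day 10, with a median of -1.41, and Tnnt2, the cardiac troponin T gene, was higher (3.05), with 62861 in knockdown and 7597 in control cells. Their part in the values of the 7 genes was not tested.

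Foxa1 lay below the floor in knockdown cells at day 10, against 409 in control cells, a log2 difference of at least 2.03 in size. Foxa2 had 132 in knockdown cells, against 476 in control cells, a difference of -1.85. The knockdown array of day 10 carried 1050 probes with deposited intensities at or below 0, against 0 to 38 on the other arrays, and its lowest values are the least certain. On the intensities as deposited both knockdown values lay under the floor, 42 for Foxa1 and 78 for Foxa2, against 240 and 282 in control cells, so their differences of -1.26 and -1.50 at the floor are bounds and not smaller effects. The part of background subtraction in these values was not tested.

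Sox17 had 2168 in knockdown cells, against 4043 in control cells at day 10, a log2 difference of -0.90. Sox7 had 1266 in knockdown cells, against 1906 in control cells (-0.59), and Hhex had 956 in knockdown cells, against 1319 in control cells (-0.47). Cxcr4 had 331 in knockdown cells, against 574 in control cells, a log2 difference of -0.79 on a probe that had dropped below the filter by day 10. These 4 differences exceeded the between-probe SD of 0.262 and stayed under 2-fold with quantile normalization, while with scaling to a common 75th percentile Cxcr4 reached 2-fold. On the intensities as deposited those of Sox17, Sox7, Hhex and Cxcr4 shrank to -0.38, -0.14, -0.04 and -0.48, with the median of all genes at 0.37. Trh had 572 in knockdown cells, against 499 in control cells, and was not separated (0.20).

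**Figure D2:**
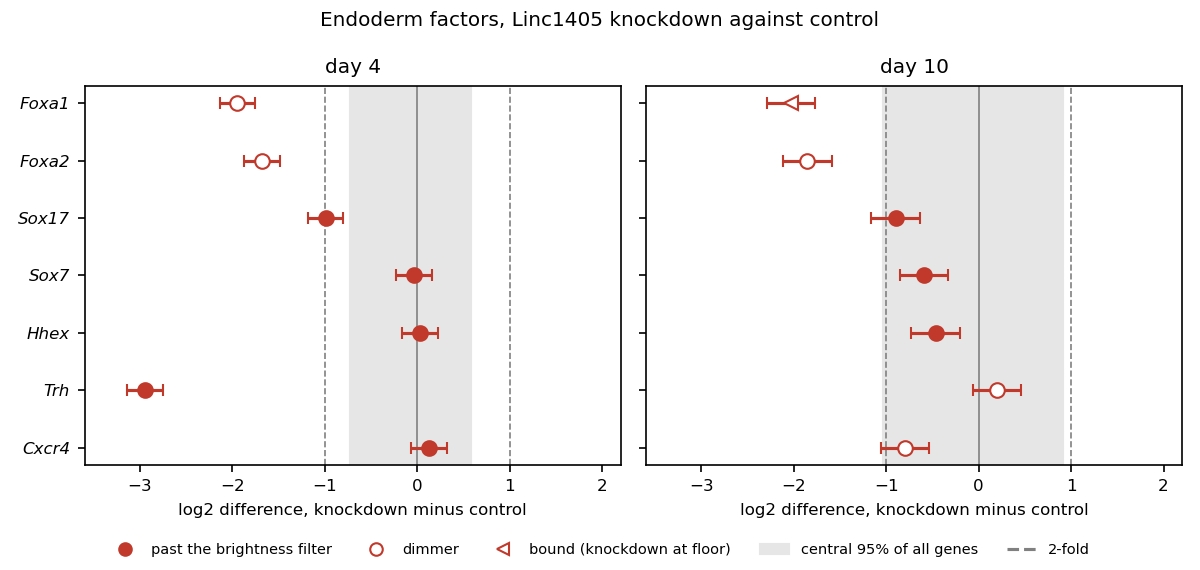
Log2 difference of knockdown minus control (x axis) for each factor (y axis) at day 4 and day 10; bars are the between-probe SD over genes past the brightness filter (0.194 and 0.262), open symbols are genes dimmer than that filter, the triangle is a bound, the grey band holds the central 95% of all genes, and dashed lines mark 2-fold. Foxa1 and Foxa2 lie left of the band on both days, and Trh and Sox17 do at day 4.

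The change from day 4 to day 10 was compared between the lines, which gives the day 10 difference minus the day 4 difference. In knockdown cells Hhex (-1.52), Trh (-1.58) and Cxcr4 (-2.76) were at least 2-fold lower at day 10 than at day 4, and in control cells the same 3 genes were, by -1.02, -4.72 and -1.84. Lower genes made up 18.2% and higher genes 18.7% of genes past the filter in knockdown cells, against 19.8% and 19.2% in control cells. For Foxa1 the change was at least 0.97 in size in knockdown cells, whose day 10 array lay at the floor, and -0.88 in control cells. Foxa2 changed by -0.79 in knockdown and -0.62 in control cells, and Sox17 by -0.18 in knockdown and -0.28 in control cells. For Cxcr4 the change in knockdown cells minus that in control cells was -0.92, for Sox7 -0.55 and for Hhex -0.50. For Trh it was 3.14, above that of 99.9% of all genes. None of these differences between changes was tested.

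**Figure D3:**
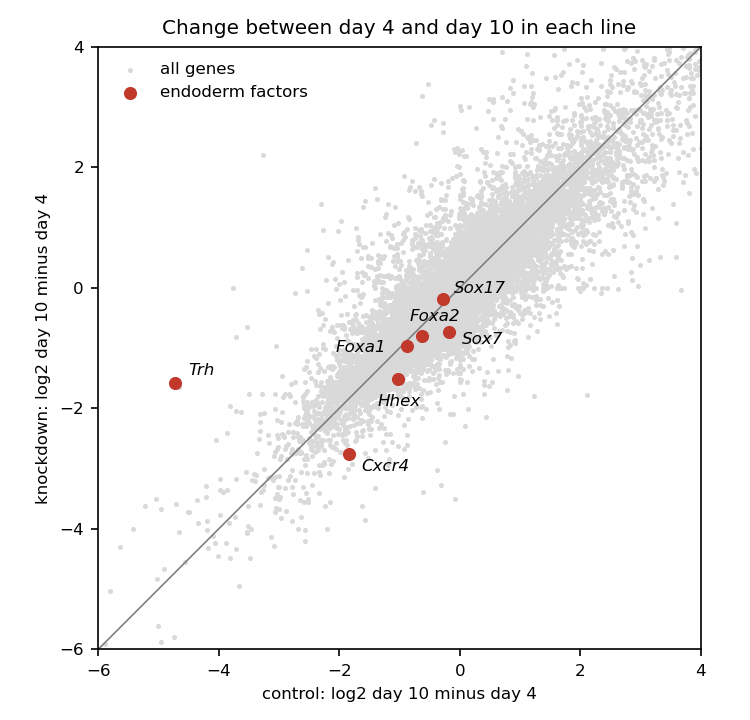
Log2 change from day 4 to day 10 in control cells (x axis) and knockdown cells (y axis), with all genes in grey, the 7 factors in red and the line of equal change; genes beyond the axes are not drawn. Trh lies far above the line, Cxcr4, Sox7 and Hhex below it, and Foxa1, Foxa2 and Sox17 close to it.

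Likeness among the 7 factors was measured as the root mean square distance between log2 levels on the 5 arrays, each gene centred on its own mean. Of the 21 pairs, Foxa1 and Foxa2 lay closest, at 0.22, followed by Sox17 and Sox7, at 0.41. Trh lay at least 3.37 from each of the other 6. The distances have 5 points each, with Foxa1 at the floor on 2 of them, and describe these arrays only.

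The 3 nearest genes to each factor were taken from 10289 brighter genes, a set that leaves out the Foxa genes themselves. Nearest to Trh were Otx2 (0.60), a factor of anterior epiblast, head and endoderm, Tdgf1 (0.74), the Nodal coreceptor Cripto, and Sox2 (0.90), a pluripotency and neural factor. Otx2 had 291 in knockdown cells, against 2167 in control cells at day 4, and 17256 in ESCs. Tdgf1 had 985 in knockdown cells, against 11003 in control cells at day 4, and 160314 in ESCs. Since these genes were picked for their likeness to Trh on the same arrays, their shared profile is a description and supports nothing further. Of the pluripotency genes, 1 of 5 past the filter was lower in knockdown cells at day 4 (Tfcp2l1) and 0 higher. There 1.09% of all genes were lower and 0.652% higher. The list median was -0.49, with 6 of 8 below 0. The part of these genes in the level of Trh was not tested.

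Nearest to Foxa1 were Prss12 (0.41) and Tmprss2 (0.54), both genes of serine proteases, and Bmp5 (0.61), a BMP ligand. Nearest to Foxa2 were Slco3a1 (0.45), an organic anion transporter gene, Rora (0.47), a nuclear receptor gene, and Prss12 (0.52). Sox17 lay nearest to P3h2 (0.24), a prolyl hydroxylase gene of collagen, Lrrc4b (0.28) and Slc35g2 (0.29). Sox7 lay nearest to Piezo2 (0.12), a mechanosensitive channel gene, Cbfa2t3 (0.14), a corepressor gene of blood cells, and Rbmx (0.20), an RNA-binding protein gene. All 3 neighbours of Sox7 have other probes that differ from the one used: the other Piezo2 probe was at the floor on all 5 arrays, and those of Cbfa2t3 and Rbmx differed by 0.97, 0.39 and 0.49 between control day 4 and ESCs, against 4.68 and 4.08 on the brightest probes. Hhex lay nearest to Enpp2 (0.06), the autotaxin gene, Ube2j1 (0.10) and Fermt3 (0.15), an integrin activator gene of blood cells. Cxcr4 lay nearest to Nkd1 (0.17), a Wnt feedback inhibitor gene, Slc39a8 (0.21), a metal transporter gene, and Stard8 (0.24). Other probes of Slco3a1 and Nkd1 also differed from the brightest. From day 4 to day 10 in knockdown cells Slco3a1 changed by 1.08 on its other probe, against -0.58 on the brightest. Between control day 4 and ESCs Nkd1 differed by 2.16 on its other probe, against 3.85 on the brightest.

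**Figure D4:**
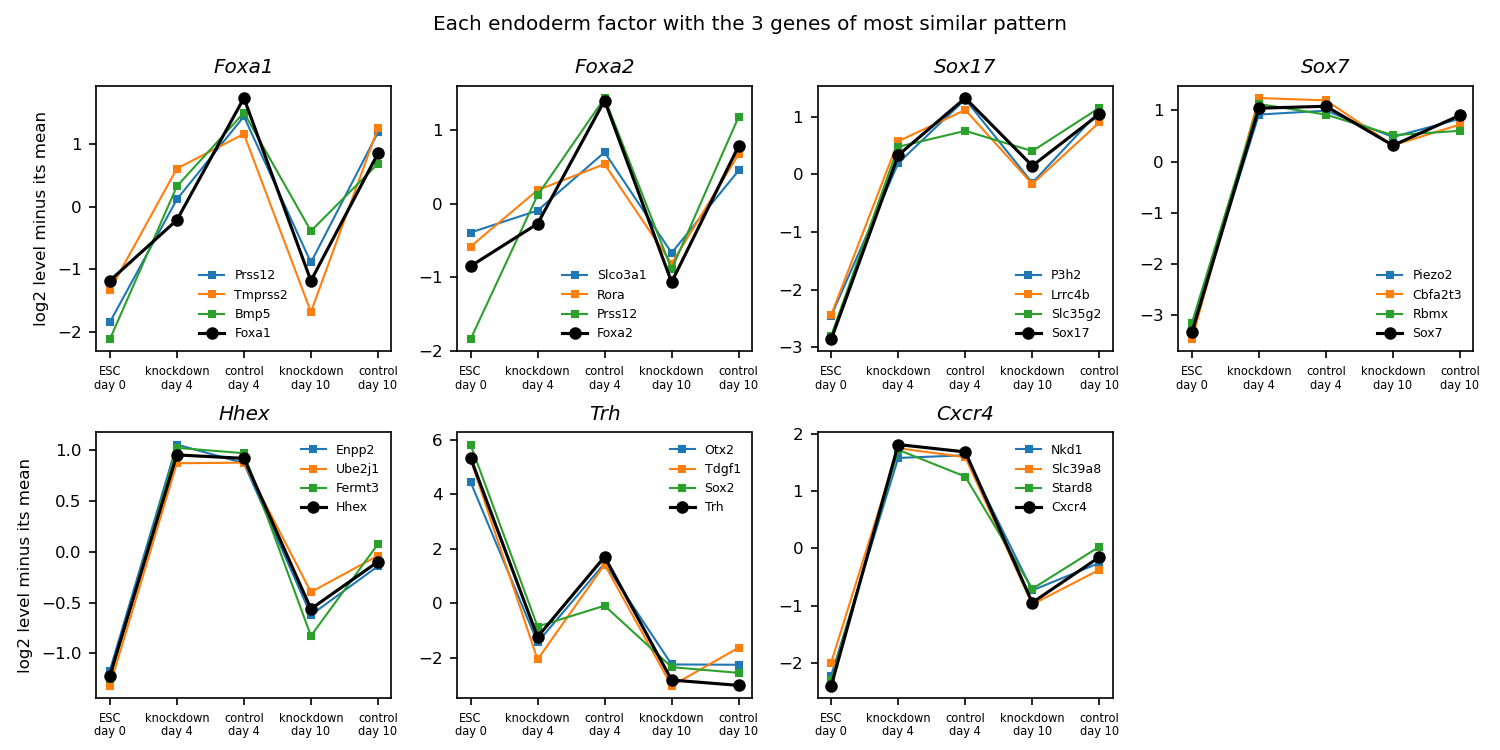
Log2 level minus its mean over the 5 arrays (y axis) for each factor (black) and its 3 nearest genes (colours) on the 5 arrays (x axis). Trh, Otx2 and Tdgf1 are lower in knockdown than in control cells at day 4, a likeness for which the neighbours were chosen, and Hhex and Enpp2 nearly coincide.

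Other definitive endoderm genes were also lower in knockdown cells at day 4. Their list, like those below, was chosen with earlier results of these data known, so its counts are a description. Of 20 measured, 15 passed the filter, 7 were lower and 0 higher, where 1.09% of all genes were lower and 0.652% higher, with a list median of -0.76 and 17 of 20 below 0. The lowest were Otx2 (-2.90), Cldn6 (-1.77), an epithelial claudin gene, Spink1 (-1.74), a protease inhibitor gene, and Dkk1 (-1.71), a Wnt antagonist gene. Otx2 and Cldn6 were, like Trh, brightest in ESCs and lower in control cells at day 4. The rest of the 7, Mixl1, Lhx1, Dkk1, Frzb and Spink1, were higher in control cells at day 4 than in ESCs. Cldn6, Epcam, Cdh1, Krt8 and Krt18 are also in the epithelial list below, so these lists are not separate. Gata4 and Gata6 are also in the parietal and primitive endoderm list, and Hnf4a in the visceral endoderm list. Cer1 is also in the Nodal pathway list, and Mixl1, Gsc and Lhx1 in the primitive streak list. Cer1, a secreted Nodal and BMP antagonist of anterior endoderm, differed by -0.78, Gsc by -0.52, Gata4 by -0.68 and Gata6 by 0.12. At day 10, 4 of 11 that passed were lower, Spink1 (-5.17), Nepn (-3.02), a hindgut and midgut endoderm marker, Cldn6 (-2.87) and Epcam (-1.48), and 0 were higher, with a median of -0.30, where 3.51% of all genes were lower. Foxa3 differed by -0.34 at day 4 and, on a probe below the filter, by -1.26 at day 10. The probe of Krt8 was at the floor on all 5 arrays and carries no information.

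The 7 factors are shared by several cell types, so lists for those types were counted beside them, to be read against 1.09% of all genes lower and 0.652% higher at day 4, and 3.51% lower and 2.41% higher at day 10. Visceral endoderm genes, markers of the extraembryonic layer that liver also expresses, had 2 of 5 lower at day 4 (Rhox5 -1.55, Ttr -1.08) and 5 of 9 lower at day 10 (Apob -3.70, Ttr -3.44, Apoa1 -3.14, Afp -2.47 and Amn -1.85), with medians of -0.58 and -1.54. Lrp2 stood against them at day 10 (2.51). With time, visceral endoderm genes rose: 7 of 8 past the filter were higher at day 10 than at day 4 in control cells. In knockdown cells 4 of 7 were higher, and 0 were lower in either line. Of all genes 19.2% were higher in control cells and 18.7% in knockdown cells. Of the 7 factors, 3 of 5 past the filter were lower with time and 0 higher in each line. Between the lines, parietal and primitive endoderm genes had 0 of 13 counted in either direction on both days, with medians of -0.10 and -0.04. Among endothelial genes, 1 of 18 was lower at day 4 (Tie1, -1.15), and at day 10 Etv2 (-1.92) and Gja4 (-1.19) were lower and Cldn5 (1.14) higher of 22, with medians of -0.14 and -0.24. Their summed normalized intensity was 281434 in knockdown and 289820 in control cells at day 4, and 426519 in knockdown and 425908 in control cells at day 10, with Erg at the floor on both day 4 arrays. These sums add different probes and lean on Plvap, an endothelial vesicle protein gene: without it they were 143489 in knockdown and 176572 in control cells at day 4, and 246593 in knockdown and 263516 in control cells at day 10. Blood genes had 1 of 7 higher at day 4 (Klf1, 1.32) and 1 of 3 lower at day 10 (Cd34), with medians of 0.21 and -0.21. The part of these cell types in the levels of Sox17, Sox7, Hhex and Cxcr4 was not tested.

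Between ESCs and control day 4 cells, endothelial and blood genes were higher together with the SoxF genes, Hhex and Cxcr4. In that comparison 12.7% of all genes were higher and 13.6% lower. There 11 of 19 endothelial genes were higher and 2 lower, with a median of 1.32 and with Kdr at 5.76, and 5 of 7 blood genes were higher, with a median of 2.09. Epithelial genes were mostly lower, 11 of 15, and 1 was higher. In knockdown cells 2 of 10 epithelial genes were lower at day 4 (Cldn6 and Cldn7), where 1.09% of all genes were, and 4 of 8 at day 10, where 3.51% were, with medians of -0.35 and -0.56. The part of these lists in the levels of the 7 factors was not tested.

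**Figure D5:**
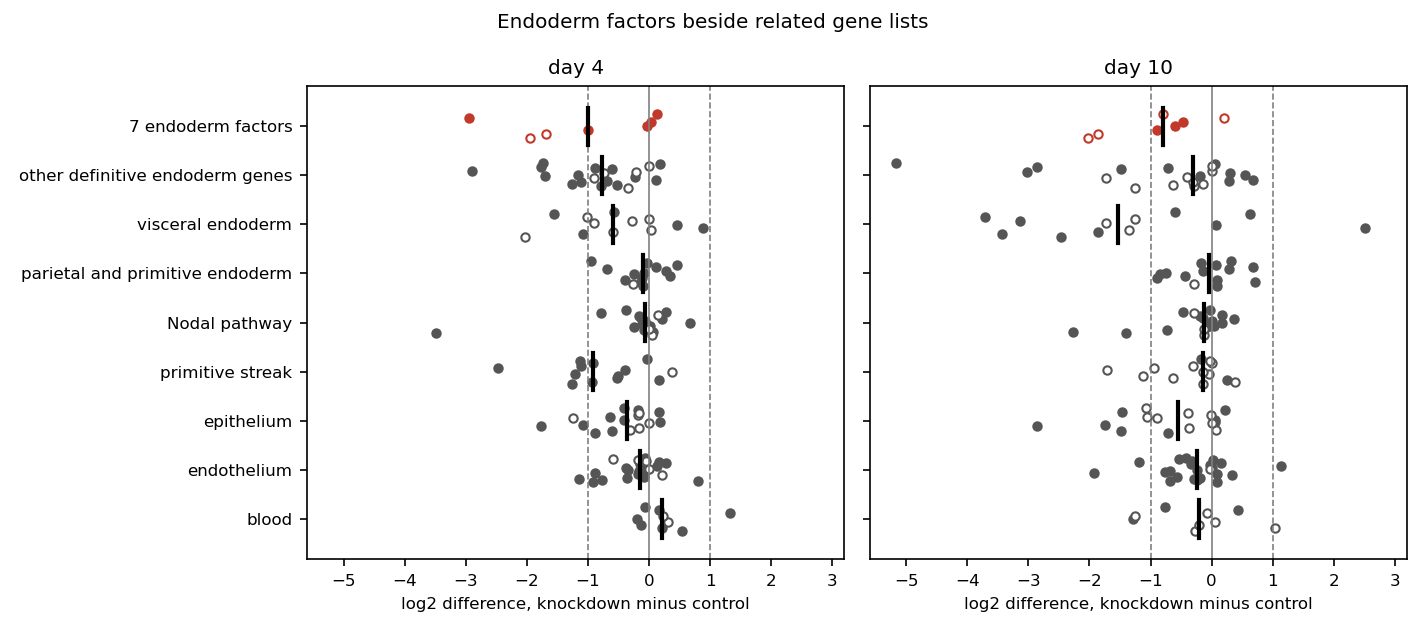
Log2 difference of knockdown minus control (x axis) at day 4 and day 10 for the measured genes of 9 lists (y axis); open circles are genes dimmer than the filter, black bars are list medians and dashed lines mark 2-fold. More genes lie left than right of 0 in every list but blood at day 4. At day 10 the same holds in every list but the parietal and primitive endoderm genes. Medians lie furthest left at day 4 for the factors with Trh (-0.99), primitive streak genes (-0.92) and other definitive endoderm genes (-0.76). Without Trh the factors' median would fall midway between Sox17 (-0.99) and Sox7 (-0.04). It would then be less low than the medians of primitive streak and other definitive endoderm genes. At day 10 the median lies furthest left for visceral endoderm genes (-1.54), followed by the factors (-0.79).

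Signalling genes upstream of endoderm were counted as a list of Nodal pathway genes. Of its 21 genes 17 were measured, while Nodal, Gdf1, Lefty1 and Lefty2 were not analysed here. In knockdown cells at day 4, 1 of 14 that passed was lower, the coreceptor gene Tdgf1 (-3.48), and 0 were higher, with a median of -0.07, where 1.09% of all genes were lower. The other coreceptor gene, Cfc1, differed by 0.07, the receptor genes Acvr1b by -0.08, Acvr2a by -0.24 and Acvr2b by 0.02, and the transducer genes Smad2 by -0.11, Smad3 by 0.68 and Smad4 by -0.07. Foxh1, the forkhead partner of the Smads, differed by 0.22. At day 10, Cfc1 (-2.27) and Tdgf1 (-1.40) were lower, of 14 that passed, and 0 were higher, where 3.51% of all genes were lower. Primitive streak genes, the stage before endoderm, had 5 of 12 lower at day 4, where 1.09% of all genes were, with a median of -0.92 and with Sp5 lowest (-2.47). Of these 5, Mixl1 and Lhx1 are also among the 7 lower definitive endoderm genes, so these lists are not separate. T differed by -0.94 while Eomes differed by 0.16. For Cxcr4 signalling, Cxcl12 differed by 0.58 at day 4 and -0.20 at day 10, and Ackr3, which encodes a scavenger receptor of Cxcl12, by -0.31 and 0.88.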

How the data were processed

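The authors deposited linear probe intensities for 26423 probes on each of 5 arrays. Per the submitters' processing notes, Agilent Feature Extraction 10.7.1.1 was used. The sources used here name no normalization step. Array medians ran from 344 to 745, and some values were at or below 0. They were quantile normalized over the 5 arrays, raised to at least 100 and log2 transformed (Python 3.11.15, numpy 2.4.6, pandas 2.3.3). The floor took 19.0 to 19.1% of probes. Of the probes 20377 carried 1 gene symbol, with 6046 left unnamed. Old symbols were replaced through RefSeq (GRCm38.p6), and the brightest probe stood for a gene. Loess centring used statsmodels 0.14.6. Precision is limited by having 1 array in each group. The 2-fold cut was tested on simulated data with large changes planted in bright probes. The brightness filter, the choice of 1 probe per gene and changes in genes as dim as Foxa1 and Foxa2 were not part of that test. The filter was written as the 50th percentile of all gene values, 10.04, and over all probes it is 9.16. The members and lists were chosen with earlier results of these data known. Named were the 7 factors, up to 3 nearest genes to each, list members with the largest differences, the Nodal and Cxcr4 genes, and Foxa3 and Sox18. Genes named beyond these (Cer1, Gsc, Gata4, Gata6, T, Eomes and Plvap, the probe-level examples and genes named as counted) were chosen after their values were seen.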

Additional observations from a re-analysis of the deposited data

Results flagged for a closer look

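Trh, Hhex and Cxcr4 were singled out because their difference between knockdown and control cells had opposite signs on the 2 days, with 1 array per group, and the difference between days was not tested. For Trh the day 10 difference (0.20) minus the day 4 difference (-2.94) was 3.14. For Cxcr4 the day 10 difference (-0.79) minus the day 4 difference (0.13) was -0.92. For Hhex the day 10 difference (-0.47) minus the day 4 difference (0.03) was -0.50. The day 4 values of Hhex and Cxcr4 and the day 10 value of Trh were within the between-probe SD, so the opposite signs rest on values whose own sign is uncertain.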

How the results depend on the processing

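No paired analysis was possible because each group held 1 array, and for the same reason no array could be left out. The count of factors at least 2-fold apart between knockdown and control at day 4 was 1 with the settings of the text, Trh. It was 2 with scaling to the 75th percentile, 2 with loess centring, and 3 without a brightness filter. It was also 3 with the filter over all probes, which was chosen after seeing the data. At day 10 the count of 0 became 2 without a filter. With a filter at the 75th percentile the count between control day 4 and ESCs was 1 in place of 5, between control day 10 and day 4 it was 1 in place of 3, and between knockdown day 10 and day 4 it was 0 in place of 3. With a 4-fold threshold the last 2 counts were 1 and 1. For single factors 215 of 245 values moved by less than the between-probe SD and 30 by more. No difference of at least 2-fold turned its sign. The 215 include values that could not move. Each factor has 1 probe, so averaging probes changes nothing, and the other floors move only levels below 200. Without scaling between arrays, the difference between the lines at day 10 moved by more than the SD for every factor. As deposited, the median of all genes was 0.20 at day 4 and 0.37 at day 10 for knockdown against control. The ranges that follow cover 6 settings of scaling, floor and probe averaging, not all of which can move a gene with 1 probe. Over them the Foxa1 difference ran from -1.95 to -1.67 at day 4 and that of Foxa2 from -1.68 to -1.41. At day 10 they ran from -2.26 to -1.03 and from -2.02 to -1.25, where the small ends come from a floor of 200 that replaces the knockdown values and are bounds on the size. The dim range of the Foxa probes limits these values.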

Other observations

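Regulators of foregut, liver and pancreas were counted at day 4: of 12 measured 5 passed the filter, Cdx2, a hindgut and posterior axis factor, was higher in knockdown cells (1.71), 0 were lower, and the median was -0.05, where 0.652% of all genes were higher. At day 10 Prox1, a factor of liver bud and lymphatic endothelium, was lower (-1.31) and 0 were higher, where 3.51% of all genes were lower. Hnf4a, a liver and visceral endoderm factor, differed by -0.89 at day 4 and -1.73 at day 10 on a probe below the filter on those arrays. Node and notochord genes, where Foxa2 also acts, had 0 of 4 counted at day 4 in either direction, with Shh at -0.27.

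Genes of the Trh receptors and of peptide processing were measured beside Trh. The receptor genes Trhr and Trhr2 did not exceed 128 and 205 on any array, and Pcsk1 and Pcsk2, which encode convertases, and Trhde, which encodes the degrading enzyme, were at the floor on all 5. The others were Cpe, a carboxypeptidase gene, Pam, an amidating enzyme gene, and Qpct, a glutaminyl cyclase gene. Each was higher at day 10 than at day 4 in both lines, where Trh was lower. Of all genes 19.2% were higher in control cells and 18.7% in knockdown cells. Between control day 4 cells and ESCs Cpe (-1.82) and Qpct (-1.05) were lower, as Trh was, and Pam was higher (1.39). In that comparison 13.6% of all genes were lower and 12.7% higher. Of these 3, 0 were 2-fold apart between knockdown and control at day 4, where 1.09% of all genes were lower and 0.652% higher. Qpct was lower in knockdown cells at day 10 (-1.02), where 3.51% of all genes were. A link of these genes to the level of Trh was not tested.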
